A study of Mus musculus with 10 samples.

Results

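The genes described here carry glucose into heart muscle cells, break it down by glycolysis and interconvert pyruvate and lactate. They are the glucose transporters Slc2a1 and Slc2a4, the phosphofructokinase subunits Pfkm, Pfkl and Pfkp, the glycolytic enzymes Aldoa, Eno3 and Pgam2, and the lactate dehydrogenases Ldha and Ldhb. They were listed by symbol, as 10 of the 22911 genes with a named probe on the array, and each probe was assigned to its gene through its RefSeq accession. All 10 were tested, with 13 probes in all, because Pfkp, Ldha and Ldhb had 2 probes each. All 13 probes were well above background on all 10 arrays. Expression was measured in total RNA of untreated C57BL/6N mouse hearts on single-colour Agilent arrays, with 4 arrays of the right ventricle (RV), 3 of the left ventricle (LV) and 3 of the ventricular septum. The hearts had been flushed with cold PBS before freezing and powdering, and ages and sexes were not given in the sources used here. The design text says that each experiment used different individuals, but it does not say whether the regions sharing a replicate number came from 1 heart. The p-values therefore measure the spread between these samples only. The first slide carried replicates 1 and 2 of the 3 regions. Replicate 3 of each region was on slide 2 together with RV replicate 4.

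Glucose enters cells through facilitative transporters. Slc2a4 encodes GLUT4, the insulin-responsive carrier that dominates in adult heart, and Slc2a1 encodes GLUT1, the carrier of basal uptake. Phosphofructokinase commits the sugar to glycolysis and is assembled from muscle (Pfkm), liver (Pfkl) and platelet (Pfkp) type subunits. Aldolase, phosphoglycerate mutase and enolase act further down the pathway, and lactate dehydrogenase joins pyruvate to lactate at its end. The adult heart takes most of its energy from fatty acids, with glucose and lactate as further fuels.

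Promoter sequences are shown for Pfkp and Pfkl, the genes with the largest differences between regions in the list. They are the 250 bases upstream of the RefSeq start on the GRCm38.p6 assembly, written 5′ to 3′ on the gene's strand. Capitals mark GCGTG, a core of the hypoxia response element, and GGGCGG, the GC box, on either strand.
Pfkp, chr13:6648772-6649021, minus strand: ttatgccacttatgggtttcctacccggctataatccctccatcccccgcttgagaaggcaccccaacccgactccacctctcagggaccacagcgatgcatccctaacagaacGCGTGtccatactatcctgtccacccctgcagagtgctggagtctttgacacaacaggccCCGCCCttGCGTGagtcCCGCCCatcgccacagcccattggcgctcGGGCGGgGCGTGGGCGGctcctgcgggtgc
Pfkl, chr10:78009808-78010057, minus strand: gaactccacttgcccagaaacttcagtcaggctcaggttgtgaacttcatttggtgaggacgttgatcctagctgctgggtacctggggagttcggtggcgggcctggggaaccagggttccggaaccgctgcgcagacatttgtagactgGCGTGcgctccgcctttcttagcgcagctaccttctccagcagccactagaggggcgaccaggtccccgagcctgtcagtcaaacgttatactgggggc

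The Pfkp window held 3 matches to GCGTG, beginning 136, 68 and 23 bases upstream of the start, and 4 matches to GGGCGG, the last of which overlaps a GCGTG. The Pfkl window held 1 GCGTG, 99 bases upstream, and 0 GC boxes. The other hypoxia core searched, ACGTG, and the E-box CACGTG, which contains it, had 0 matches in both windows. Among all 32851 promoters of the same length, a match to the first motif was found in 28.2%, the GC box in 32.7%, the other hypoxia core in 16.6% and the E-box in 6.02%. Bases G and C made up 62.8% of the Pfkp window and 59.2% of the Pfkl window, against a median of 52.4%. A match describes these letters only. Promoters were found for 9 of the 10 genes, all but Slc2a4.

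Levels are given as the log2 signal of a probe relative to the 75th percentile of its array, so that 0 is that percentile and a difference of 1 is a doubling. Levels of different genes come from different probes and cannot be set against each other. A gene is called changed where limma's p, adjusted by Benjamini-Hochberg over the 30234 probes tested, was below 0.05. Against the LV, 1 of the 10 genes was called, Pfkp, which was lower in the RV. Of all probes, 3.86% were called in that comparison with 1.55% lower and 2.31% higher. Each gene is represented by its brightest probe, and of the brightest probes of all named genes 4.98% were called. The difference was below 0 for all 10 genes, with a median of -0.16, against 57.0% of all probes and a median of -0.04. That count of directions depended on scaling, since quantile normalization put Eno3 at 0.0074 and Ldha at 0.0015, and scaling to the 75th percentile of only the probes bright on every array put Slc2a1 at 0.023 and Eno3 at 0.0058. The RV arrays lay entirely below the LV arrays for 5 genes, Slc2a4, Pfkl, Pfkp, Aldoa and Pgam2, where 11.0% of all probes did so. Against the septum, Pfkp was again the 1 gene called and it was lower in the RV. Of all probes 2.08% were called, 0.873% lower and 1.20% higher, and of the brightest probes 2.70%. The median over the genes was -0.05 there, against -0.03 over all probes, and 7 of 10 lay below 0, where 57.3% of all probes did. Both comparisons use the same 4 RV arrays.

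Of 11 listed cardiomyocyte genes 11 were tested, being well above background on every array of 1 or more regions. These genes are of heart muscle in general, so they do not check the labels of the regions. Their summed level ran from 12.18 to 12.29 in the RV, from 12.29 to 12.47 in the LV and from 12.16 to 12.43 in the septum, and their median difference was -0.16 for RV minus LV and -0.12 for RV minus septum, with 1 of 11 called lower in each comparison. Of 9 listed white adipocyte genes, 6 were called higher in the RV than in the LV and 3 higher than in the septum, with median differences of 3.43 and 2.10. Their summed level, from 6.84 to 7.12 in the RV, overlapped that of the LV (6.72 to 7.03) and of the septum (6.63 to 7.03). A sum of signals is set mostly by its brightest genes, so it can overlap while dimmer genes differ. Of 8 fibroblast genes, 3 were called higher than in the LV and 1 higher than in the septum, with a summed level of 8.47 to 8.74 in the RV, 7.86 to 8.14 in the LV and 8.17 to 8.39 in the septum. Of 7 tested mesothelium genes, 6 were called higher in the RV than in the septum and 0 higher than in the LV, with summed levels of 3.02 to 4.53 in the RV, 2.21 to 2.91 in the LV and 0.55 to 1.75 in the septum. Of 12 skeletal muscle genes, 8 were tested and Myh1 was never well above background. Their summed level was 6.48 to 6.77 in the RV, below the LV (6.90 to 7.25) and the septum (6.995 to 7.17), with a median difference of -0.06 against the LV and -0.17 against the septum and 1 called, lower than in the septum. Of 7 atrial myocardium genes, 6 were tested, Bmp10 was never well above background, and 1 was called, higher in the RV than in the LV. Their summed level was 5.13 to 6.83 in the RV, overlapping the LV (6.69 to 7.24) and below the septum (6.88 to 9.22), with median differences of 0.29 and -1.61, and of 1.93 for septum minus LV. Of 7 macrophage genes 0 were called, while their summed level was higher in the RV (5.48 to 5.63) than in the LV (5.05 to 5.35) and the septum (4.88 to 5.396), with median differences of 0.31 against each. The part of these cell types in the differences below was not tested. In such bulk tissue, fewer cells of a type and less RNA per cell cannot be told apart.

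**Figure D1:**
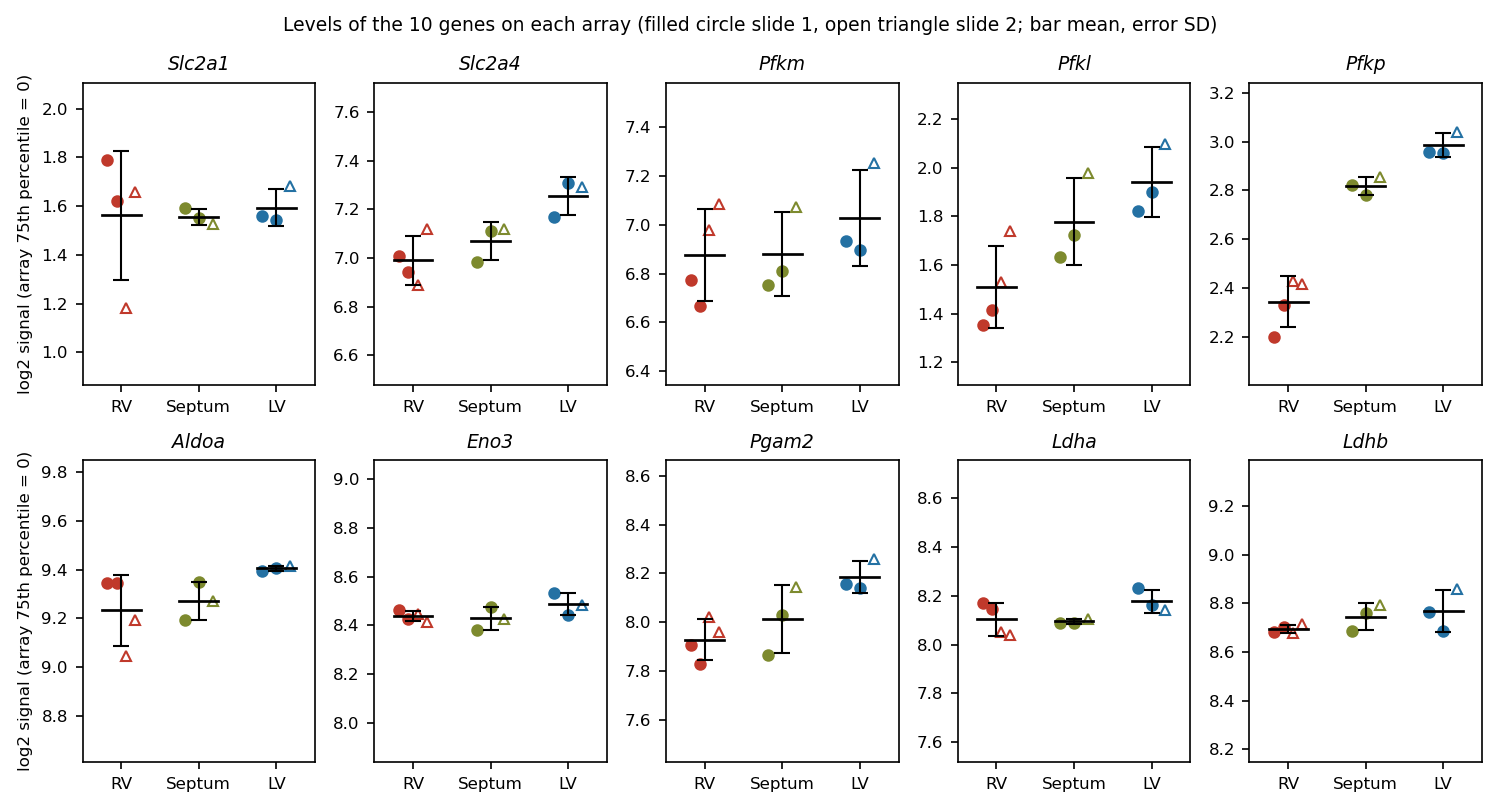
Level of each of the 10 genes on each array, as log2 signal relative to the array's 75th percentile, for 4 RV, 3 septum and 3 LV arrays. Filled circles are slide 1 and open triangles slide 2, horizontal bars are means and error bars SD; every panel spans the same range of log2 units. Pfkp is the panel with the widest gap between regions, with all RV arrays at or below 2.43 and all other arrays at or above 2.78.

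Among the transporters, the insulin-responsive carrier Slc2a4 was measured at 7.01, 6.94, 6.89 and 7.12 on the 4 RV arrays, at 7.17, 7.31 and 7.29 on the LV arrays and at 6.98, 7.11 and 7.12 on the septum arrays. The LV arrays lay above all others, by a narrow margin over RV replicate 4 and septum replicate 3. The RV mean was 6.99 ± 0.099 (SD, n = 4) and the LV mean 7.25 ± 0.077 (SD, n = 3), a difference of -0.26 (95% interval -0.45 to -0.08) that did not pass the adjusted threshold (limma adjusted p = 0.112). With slide as a block the difference was -0.27 and passed (adjusted p = 0.0347), and with a block for the replicate number it was -0.31 (adjusted p = 0.0341), a fit in which RV replicate 4, with no partner, does not enter the difference. Those models called 17.6% and 14.9% of all probes, and 21.3% and 17.9% of the brightest probes, so the pass is read against that background. Against the septum the Slc2a4 difference was -0.08 (95% interval -0.26 to 0.10).

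The basal carrier Slc2a1 had its widest spread within the RV. Its levels were 1.79, 1.62, 1.18 and 1.66 in the RV, 1.56, 1.54 and 1.68 in the LV and 1.59, 1.55 and 1.53 in the septum. RV replicates 1 and 3 were the highest and the lowest of all 10 arrays, so the RV range enclosed both other regions. The differences were -0.03 against the LV (95% interval -0.33 to 0.26) and 0.0064 against the septum (95% interval -0.29 to 0.30). Differences within those intervals are compatible with these arrays, and a larger one could also miss the adjusted threshold. The sign of the RV minus LV value turned without RV replicate 3 (0.095).

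The 3 phosphofructokinase subunits differed in how far the RV lay from the other regions. The platelet type subunit Pfkp was measured at 2.20, 2.33, 2.43 and 2.42 in the RV, at 2.96, 2.95 and 3.04 in the LV and at 2.82, 2.78 and 2.85 in the septum. The regions did not overlap, in the order RV, septum, LV. The RV mean was 2.34 ± 0.11 (SD, n = 4), the LV mean 2.98 ± 0.049 (SD, n = 3) and the septum mean 2.82 ± 0.037 (SD, n = 3). The difference RV minus LV was -0.64 with an SE of 0.077 (95% interval -0.81 to -0.47, limma adjusted p = 0.00377), which made the LV signal 1.56-fold that of the RV. RV minus septum was -0.48 with an SE of 0.077 (95% interval -0.65 to -0.30, limma adjusted p = 0.0192), a 1.39-fold higher signal in the septum. Septum and LV, the neighbours at the top of the order, differed by -0.17 (95% interval -0.35 to 0.02), which did not pass.

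The other Pfkp probe gave the same order. It read 0.58, 0.80, 0.82 and 0.88 in the RV, 1.45, 1.46 and 1.42 in the LV and 1.18, 1.26 and 1.33 in the septum. Its differences were -0.67 against the LV (limma adjusted p = 0.00449) and -0.49 against the septum (limma adjusted p = 0.0261). The 2 probes share the samples and are no independent replication. Leaving out each array in turn, the Pfkp call against the LV passed in 10 of 10 fits, at -0.67 to -0.59. The call against the septum passed in 6 of 10 and was lost without septum replicate 1 (-0.47), septum replicate 2 (-0.49), septum replicate 3 (-0.46) and RV replicate 2 (-0.47). It was also lost when arrays were scaled by their median (-0.43, adjusted p = 0.161), when dim probes were kept in (-0.48, adjusted p = 0.119) and when only RV and septum arrays were fitted (-0.48, adjusted p = 0.0621). Within slide 1 the Pfkp call passed against both regions, at -0.69 and -0.54. Within slide 2, with 1 LV and 1 septum array, the differences were -0.62 (adjusted p = 0.112) and -0.43 (adjusted p = 0.200).

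The liver type subunit Pfkl was measured at 1.36, 1.42, 1.53 and 1.74 in the RV, at 1.82, 1.90 and 2.10 in the LV and at 1.63, 1.72 and 1.98 in the septum. All RV arrays lay below all LV arrays, and RV replicate 4 lay within the range of the septum. Its RV minus LV difference was -0.43 with an SE of 0.12 (95% interval -0.71 to -0.15) and did not pass (limma adjusted p = 0.0895). RV minus septum was -0.27 (95% interval -0.55 to 0.0089, limma adjusted p = 0.373). On each slide the order was RV, septum, LV, and slide 2 read higher than slide 1 by 0.25 in the RV, 0.24 in the LV and 0.30 in the septum. With slide as a block both differences passed, at -0.47 (adjusted p = 0.0033) and -0.31 (adjusted p = 0.0224). With the replicate block they were -0.51 (adjusted p = 0.00679) and -0.34 (adjusted p = 0.0218). Within slide 1 alone, RV minus LV was -0.48 (adjusted p = 0.0478).

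The muscle type subunit Pfkm, the main form in striated muscle, was measured at 6.78, 6.67, 6.98 and 7.08 in the RV, at 6.93, 6.90 and 7.26 in the LV and at 6.75, 6.81 and 7.07 in the septum. The regions overlapped, and the slide 2 arrays were the higher ones in each, by 0.31 in the RV, 0.34 in the LV and 0.29 in the septum. RV minus LV was -0.15 (95% interval -0.46 to 0.15, limma adjusted p = 0.601) and RV minus septum -0.0018 (95% interval -0.31 to 0.30). The sign of the latter turned with scaling by the median (0.041) and with scaling by the probes bright on every array (0.032). With slide as a block RV minus LV was -0.20 (adjusted p = 0.0329), and with the replicate block -0.22 (adjusted p = 0.0464). The call was lost with the replicate number as a random effect, whose correlation is estimated (-0.19, adjusted p = 0.125).

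**Figure D2:**
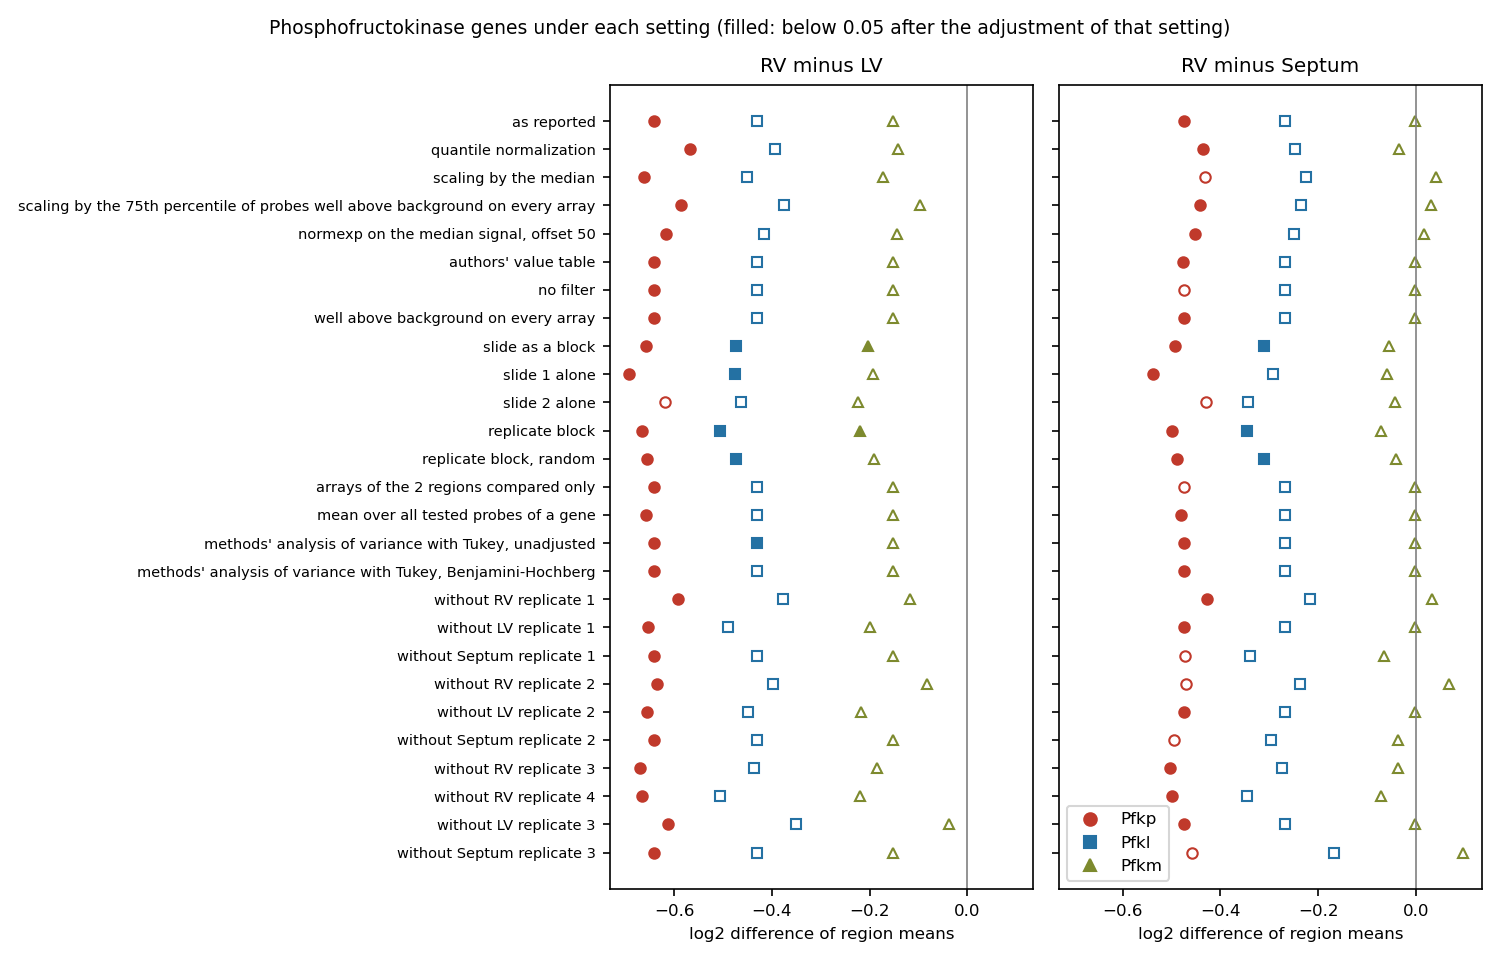
Difference of region means for Pfkp, Pfkl and Pfkm under the reported setting and each alternative, RV minus LV on the left and RV minus septum on the right, in log2 units. Filled symbols passed the threshold of their setting and open ones did not. All Pfkp symbols lie left of 0 in both panels, Pfkl is filled against the LV with a block for slide or replicate, within slide 1 and in the unadjusted analysis of variance, and Pfkm crosses 0 in the right panel.

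The subunits were also compared within each array, where the scaling of the array drops out. The offset between probes of different genes has no meaning as an amount, so that only its change between regions is read, and no test was run. Pfkp minus Pfkm ran from -4.67 to -4.34 in the RV, from -4.21 to -3.94 in the LV and from -4.22 to -3.93 in the septum. The RV arrays lay below all others, and the LV and septum means were 0.49 and 0.47 above the RV mean, a 1.40-fold and a 1.39-fold higher ratio of the signals. Pfkl minus Pfkm ran from -5.45 to -5.25 in the RV, from -5.16 to -4.996 in the LV and from -5.12 to -5.09 in the septum. Again the RV did not overlap the other regions, with LV and septum means 0.28 and 0.27 above it. The signals of Pfkp and Pfkl relative to Pfkm were thus lower on all 4 RV arrays than on any other array, while LV and septum overlapped in both ratios. For Pfkp its level alone already separated the RV. How many other gene pairs separate in this way was not counted.

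**Figure D3:**
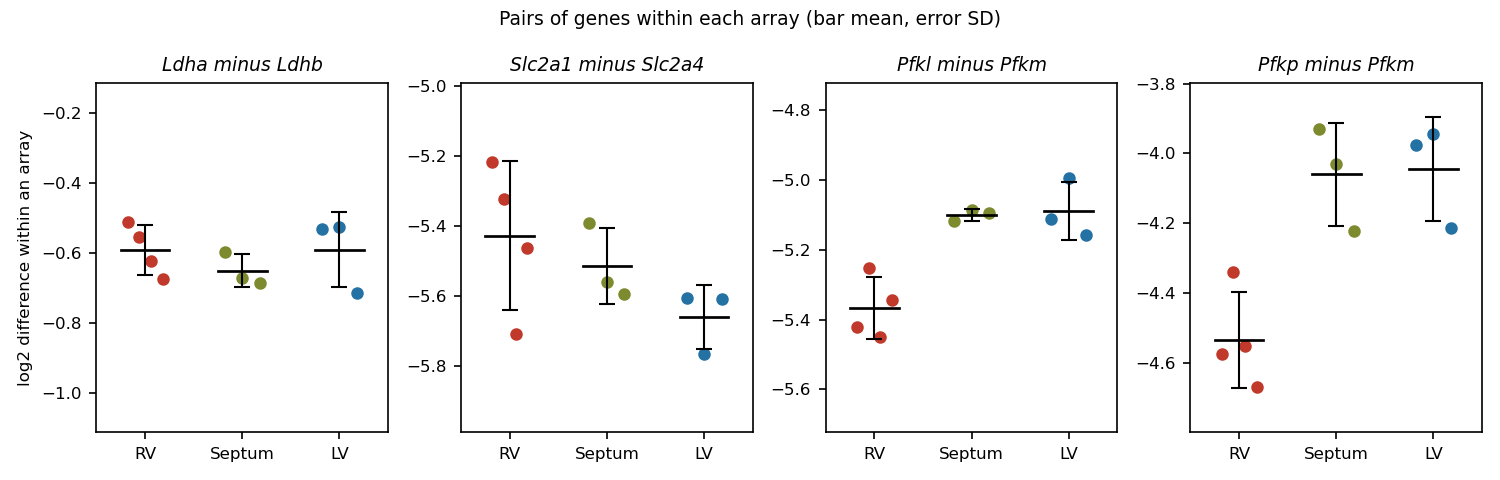
Difference of log2 signals between pairs of genes within each array, for 4 RV, 3 septum and 3 LV arrays; bars are means and error bars SD. Pfkl minus Pfkm and Pfkp minus Pfkm are lower on all RV arrays than on any other array, whereas the RV overlaps both other regions for Ldha minus Ldhb and for Slc2a1 minus Slc2a4, and in the latter all LV arrays lie below all septum arrays.

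Further down the pathway, the aldolase of muscle, Aldoa, splits the sugar into its triose phosphates. Aldoa was measured at 9.35, 9.35, 9.04 and 9.19 in the RV, at 9.39, 9.41 and 9.41 in the LV and at 9.19, 9.35 and 9.27 in the septum. The LV arrays lay within 0.02 of each other and above all others, with RV replicate 3 the lowest. The RV minus LV difference was -0.17 (95% interval -0.37 to 0.03, limma adjusted p = 0.333) and RV minus septum -0.04 (95% interval -0.24 to 0.16), and neither passed. The latter turned to 0.0040 with scaling by the median and to 0.024 without RV replicate 3.

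Pgam2, the muscle form of phosphoglycerate mutase, was measured at 7.90, 7.83, 8.02 and 7.96 in the RV, at 8.16, 8.14 and 8.26 in the LV and at 7.86, 8.03 and 8.14 in the septum. All RV arrays were below all LV arrays, and the septum spanned the gap. RV minus LV was -0.26 (95% interval -0.45 to -0.06, limma adjusted p = 0.142). It passed with slide as a block (-0.28, adjusted p = 0.0144) and with the replicate block (-0.27, adjusted p = 0.041). Against the septum the Pgam2 difference was -0.08 (95% interval -0.28 to 0.11).

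Eno3, the muscle enolase, had the narrowest range of the 10 genes over all arrays. Its levels ran from 8.42 to 8.46 in the RV, from 8.44 to 8.53 in the LV and from 8.38 to 8.48 in the septum, and the regions overlapped. Its difference was -0.05 between RV and LV (95% interval -0.19 to 0.09) and 0.0092 between RV and septum (95% interval -0.13 to 0.15), and neither passed. Quantile normalization turned both signs (0.0074 and -0.019), and scaling by the probes bright on every array turned the first (0.0058).

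The lactate dehydrogenase subunits A and B form the tetramer that interconverts pyruvate and lactate, A being the muscle type and B the heart type. Ldha was measured at 8.17, 8.15, 8.05 and 8.04 in the RV, at 8.23, 8.16 and 8.14 in the LV and at 8.09, 8.09 and 8.11 in the septum. Ldhb was measured at 8.68, 8.70, 8.68 and 8.71 in the RV, at 8.76, 8.68 and 8.86 in the LV and at 8.68, 8.76 and 8.79 in the septum. The RV overlapped the LV and the septum for both genes. RV minus LV was -0.08 for Ldha (95% interval -0.23 to 0.08, limma adjusted p = 0.597) and -0.08 for Ldhb (95% interval -0.23 to 0.08, limma adjusted p = 0.612). RV minus septum was 0.0081 for Ldha and -0.05 for Ldhb. The other Ldha probe gave -0.20 and -0.13 for these comparisons, and the other Ldhb probe -0.15 and -0.12, none of which passed. Averaging both probes turned the sign of Ldha against the septum (-0.059), as did quantile normalization (-0.0082), which also put Ldha against the LV at 0.0015. The balance of the subunits, Ldha minus Ldhb within an array, was -0.59 ± 0.072 (SD, n = 4) in the RV, -0.59 ± 0.11 (SD, n = 3) in the LV and -0.65 ± 0.048 (SD, n = 3) in the septum. These ranges overlapped, and no test was run on them.

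**Figure D4:**
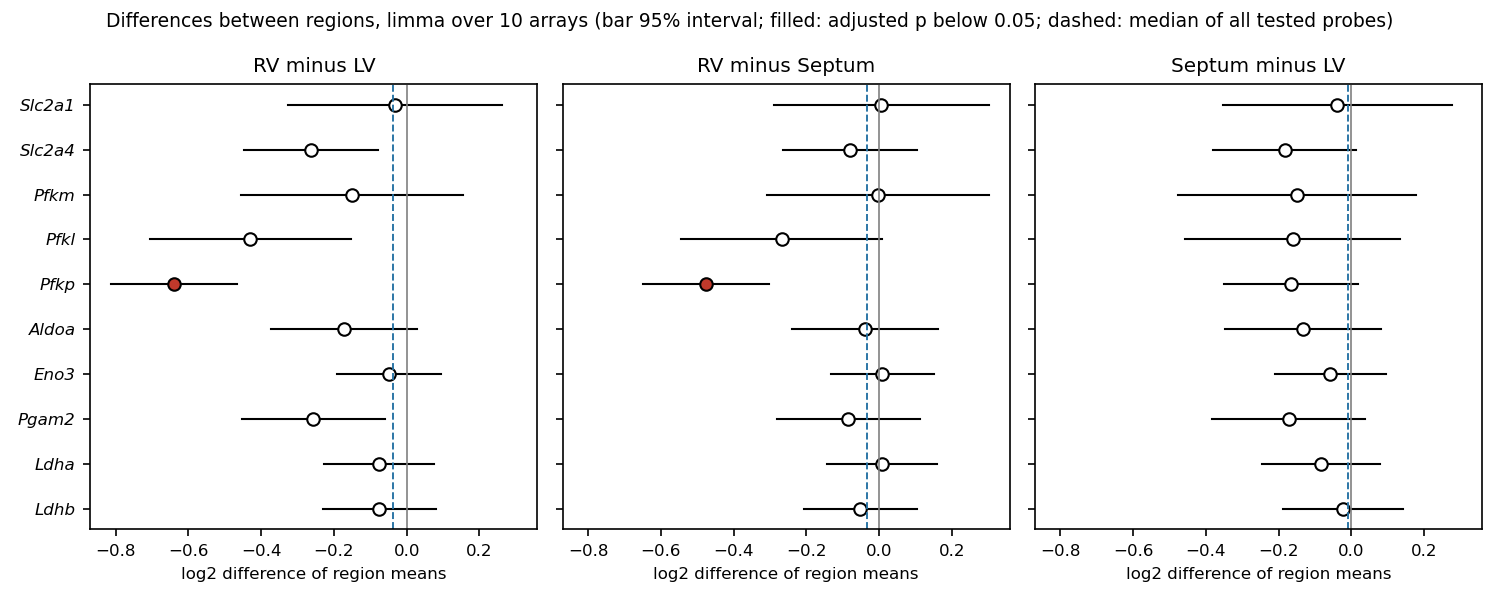
Difference of region means for the 10 genes in the 3 comparisons, in log2 units, from limma over 10 arrays; bars are 95% intervals, filled symbols passed the adjusted threshold and the dashed line is the median of all tested probes. Pfkp is the filled symbol in the first 2 panels, and in the third panel all 10 intervals include 0.

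With 4 genes below an unadjusted p of 0.05 against the LV (Slc2a4, Pfkl, Pfkp and Pgam2) and 19.8% of all probes below it, and 1 gene (Pfkp) against the septum with 14.1% of all probes, the list's counts depended on the model. With slide as a block 5 of the 10 genes were called lower than in the LV, Slc2a4, Pfkm, Pfkl, Pfkp and Pgam2. Of all probes 10.4% were called lower there, and of the brightest probes of all named genes 21.3% were called in either direction. The replicate block called the same 5 genes, where 14.9% of all probes and 17.9% of the brightest probes were called in either direction. With the replicate number as a random effect 4 of them were called, all but Pfkm, beside 19.2% of all probes. Against the septum both blocks called Pfkl and Pfkp. The slide block called 4.72% of all probes lower, and the replicate block called 7.12% of all probes in either direction. Of the brightest probes, the slide block called 11.0% and the replicate block 8.69%, in either direction. The random effect called both genes as well, beside 10.5% of all probes.

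Between septum and LV, limma called 0 of the 10 genes and 0% of all probes, with 862 of 30234 probes (2.85%) at an unadjusted p below 0.05, and the slide block called 0 of the genes and 0.0463% of the probes, 0.00662% lower. The analysis of variance named in the study's methods, with Tukey's correction, also called 0 of the genes. The differences ran from -0.18 for Slc2a4 (95% interval -0.38 to 0.01) to -0.02 for Ldhb (95% interval -0.19 to 0.14), with a median of -0.14 against -0.01 over all probes. Over all probes the median size of a difference was lowest for this pair (0.07, beside 0.14 for RV minus LV and 0.12 for RV minus septum), but over the 10 genes it was lowest for RV minus septum (0.05, beside 0.14 for septum minus LV and 0.16 for RV minus LV). All 10 lay below 0, where 53.9% of all probes did, but quantile normalization put Eno3 at 0.026, Ldha at 0.0097 and Ldhb at 0.071. Septum arrays lay entirely below LV arrays for Slc2a4, Pfkp, Aldoa and Ldha, 4 of the 10 genes, where 3.45% of all probes did so.

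The rest of the pathway was described with 92 further genes in 5 lists, of which 82 were tested. Of these, 12 were called between RV and LV, 5 higher and 7 lower in the RV, which is 14.6% against 4.98% of the brightest probes of all named genes. The 12 include Pck1, which passed the filter only through the RV, where it was high. Between RV and septum 4 were called, 2 higher and 2 lower, 4.88% against 2.70%. The lists were chosen with earlier results of these data known, so these shares are a description only and no support. Between septum and LV 0 were called, also with slide as a block, where 0.0751% of the brightest probes were. The medians were -0.13, -0.07 and -0.07. With slide as a block the counts rose to 38 and 16, where 21.3% and 11.0% of the brightest probes were called, and with the replicate block to 34 and 12, where 17.9% and 8.69% were. In the lists of glycolytic enzymes, carriers, pyruvate handling, regulators and glycogen metabolism, the slide block called 3, 4, 13, 6 and 12 of 13, 12, 27, 9 and 21 tested genes against the LV, to be read against the same 21.3%.

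**Figure D5:**
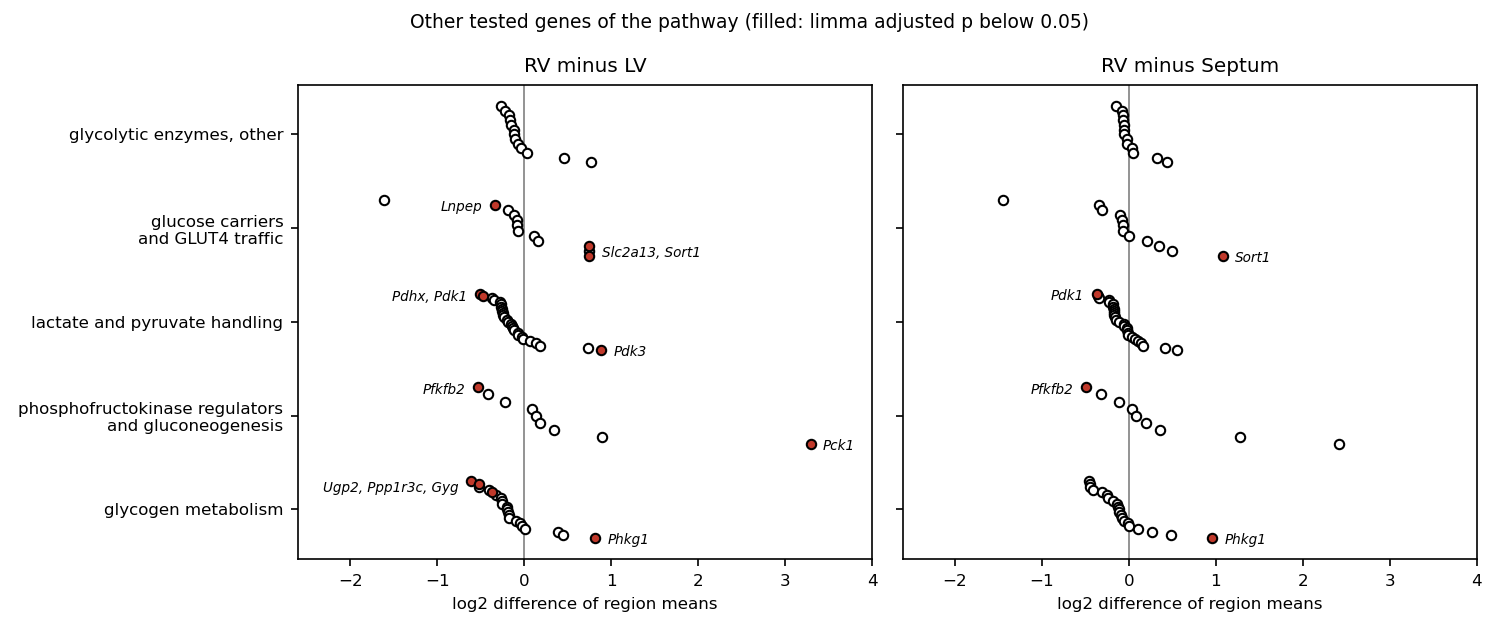
Difference of region means for the 82 tested further genes of the pathway, grouped by list, RV minus LV on the left and RV minus septum on the right, in log2 units. Filled points passed the limma threshold, 12 on the left and 4 on the right, and each label names the filled points of its list and side in order of their difference. Most open points lie near 0. Pck1 is the filled point farthest to the right, at a difference that rests on LV signals not well above background.

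Among the other glycolytic enzymes, limma called 0 of 13 tested in each comparison. At an unadjusted p below 0.05 were 4, 1 and 0 genes for RV minus LV, RV minus septum and septum minus LV. Of all probes 19.8%, 14.1% and 2.85% were below it. With slide as a block 3, 1 and 0 were called, where 21.3%, 11.0% and 0.0751% of the brightest probes were. Eno2, the neuronal enolase, was measured at -1.87, -2.14, -1.18 and -1.44 in the RV, at -2.35, -2.52 and -2.41 in the LV and at -1.62, -2.39 and -1.93 in the septum. All RV arrays lay above all LV arrays and overlapped those of the septum. Of 7 listed nerve and Schwann cell genes, 5 were tested and 1 was called higher in the RV than in each other region, with median differences of 0.23 against the LV and 0.22 against the septum and summed levels of 3.18 to 3.65 in the RV, 3.13 to 3.25 in the LV and 3.09 to 3.36 in the septum, and their part in the Eno2 values was not tested. The Eno2 differences were 0.77 against the LV (limma adjusted p = 0.113) and 0.32 against the septum (limma adjusted p = 0.622). Aldoc, the brain aldolase, differed by 0.46 from the LV (limma adjusted p = 0.184) and by 0.44 from the septum (limma adjusted p = 0.299), and both passed with the replicate block (0.51, adjusted p = 0.0172, and 0.48, adjusted p = 0.0264). The 13 genes ran from -0.26 to 0.77 against the LV and from -0.15 to 0.44 against the septum. Between septum and LV, the largest differences were 0.45 for Eno2 and -0.16 for Pgam1, the phosphoglycerate mutase of most tissues. Gapdhs, Pgk2, Eno4 and Pklr were not well above background on every array of any region.

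Among the carriers and proteins of GLUT4 traffic, 3 of 12 tested genes were called against the LV. Sort1, the sorting receptor of GLUT4 storage vesicles, was measured at 2.82, 2.69, 3.08 and 2.95 in the RV, at 2.09, 2.07 and 2.24 in the LV and at 2.06, 1.70 and 1.65 in the septum. The RV lay above both other regions, by 0.75 against the LV (SE 0.13, limma adjusted p = 0.0152) and by 1.08 against the septum (limma adjusted p = 0.00479). The Sort1 call against the septum passed without any array, and that against the LV was lost without LV replicate 1 (0.73) and LV replicate 2 (0.72). Slc2a13, the proton and myo-inositol carrier of the GLUT family, was higher in the RV than in the LV by 0.75 (limma adjusted p = 0.0143), a call lost without LV replicate 1 (0.73) and LV replicate 2 (0.69). Lnpep, the aminopeptidase that travels with GLUT4, was lower in the RV (-0.33, limma adjusted p = 0.0493), and this call was lost whichever of the 10 arrays was left out, at -0.39 to -0.29. Slc2a2, the liver glucose carrier, was well above background on 1 of 4 RV, 3 of 3 LV and 2 of 3 septum arrays, so that it entered the test only through the LV. Its differences of -1.61 and -1.45 did not pass (limma adjusted p = 0.260 and 0.423), and the first passed with the replicate block (-1.44, adjusted p = 0.0333). They rest on RV signals mostly not well above background, and nothing further is read from them.

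Phosphofructokinase is activated by a fructose bisphosphate that the Pfkfb enzymes make and remove. Pfkfb2, the heart isoform of that enzyme, was measured at 2.73, 2.59, 2.49 and 2.59 in the RV, at 3.24, 3.07 and 3.09 in the LV and at 3.11, 3.10 and 3.07 in the septum. The RV lay below both, with differences of -0.53 against the LV (SE 0.079, limma adjusted p = 0.00864) and -0.49 against the septum (limma adjusted p = 0.0185). The first call passed without any array. The second was lost without septum replicates 1 (-0.48), 2 (-0.49) and 3 (-0.51) and without RV replicates 2 (-0.49) and 4 (-0.49). Pfkfb1, the liver and muscle isoform, had its RV arrays at 3.23, 3.18, 1.98 and 2.84, its LV arrays between 1.59 and 2.14 and its septum arrays between 1.12 and 1.88. RV replicate 3 fell within the LV range, and the differences of 0.90 (limma adjusted p = 0.139) and 1.28 (limma adjusted p = 0.0734) passed without it, at 1.17 and 1.56, and with the replicate block, at 0.89 (adjusted p = 0.0238) and 1.27 (adjusted p = 0.014).

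Pck1, the cytosolic enzyme of gluconeogenesis and of glyceride synthesis in adipocytes, was well above background on 4 of 4 RV, 0 of 3 LV and 1 of 3 septum arrays, so that it entered the test only through the RV, where it was high, and had to differ. Its mean RV signal was 3.36-fold a floor set for the LV. The floor was, per LV array, the dimmest signal called above background or the probe's own, whichever was higher. It had a mean log2 level of -3.76 and is not sharp. Pdk3, a gene described below, was at -3.40 and -3.62 on LV replicates 2 and 3 and was not well above background there. The fold is therefore no strict bound, and given the filter it is not read as a result. The limma call (adjusted p = 0.0446) belongs instead to the fitted log2 difference of 3.29, which rests on LV signals not well above background. Given the filter, that call is not read as support. The call was lost with the replicate block (adjusted p = 0.0651) and in 7 of 10 fits without 1 array, namely without RV replicates 1 (3.32), 2 (3.28) and 4 (2.94), LV replicates 1 (2.60) and 2 (3.26) and septum replicates 1 and 3 (3.29 each). The values in parentheses are fitted log2 differences and do not use the floor. Against the septum the difference was 2.42 (limma adjusted p = 0.170). The higher adipocyte, fibroblast and mesothelium markers given above stood beside the higher Sort1 of the RV and the Pck1 and Pfkfb1 values, and their part in them was not tested.

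In the list of lactate and pyruvate handling, 3 of 27 tested genes were called against the LV and 1 against the septum. Pdk1, a kinase that switches off pyruvate dehydrogenase, was measured at 2.61, 2.56, 2.62 and 2.64 in the RV, at 3.16, 3.05 and 3.03 in the LV and between 2.91 and 3.02 in the septum. The RV lay below both regions, at -0.47 against the LV (SE 0.068, limma adjusted p = 0.00744) and -0.37 against the septum (limma adjusted p = 0.0294). The first call passed without any array, and the second was lost in 7 of 10 such fits, without RV replicates 1 (-0.37), 2 (-0.35) and 4 (-0.38), LV replicate 2 (-0.37) and septum replicates 1 (-0.35), 2 (-0.36) and 3 (-0.40). Pdhx, the binding protein of the pyruvate dehydrogenase complex, was lower than in the LV (-0.51, limma adjusted p = 0.0368) and its call was lost in 7 of 10 fits, passing without RV replicate 3, LV replicate 3 or septum replicate 3, with values of -0.61 to -0.46 over all 10. Pdk3, another of these kinases, was higher in the RV (0.88, limma adjusted p = 0.0121) and lost its call without LV replicate 1 (0.79). It was well above background on all RV and septum arrays but on 1 of 3 LV arrays, so that the size of this difference rests in part on LV signals not told from background. Slc16a3, the lactate exporter MCT4, had a difference of 0.73 (limma adjusted p = 0.0807) and passed with the replicate block (0.71, adjusted p = 0.0317). Against the septum, Slc16a3 and Pdk3 had differences of 0.55 and 0.41 that did not pass (limma adjusted p = 0.250 and 0.219).

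Of 21 tested genes of glycogen metabolism, 1 was called higher and 3 lower in the RV than in the LV. Phkg1, the muscle catalytic subunit of phosphorylase kinase, was measured at 1.41, 1.41, 1.47 and 1.47 in the RV, at 0.58, 0.59 and 0.70 in the LV and at 0.64, 0.47 and 0.33 in the septum. The RV arrays lay within 0.07 of each other and above all others, by 0.82 against the LV (SE 0.084, limma adjusted p = 0.00278) and 0.96 against the septum (limma adjusted p = 0.000974), and both calls passed whichever array was left out. Ugp2, which makes the UDP-glucose that glycogen is built from, was measured at 4.21, 4.39, 4.42 and 4.46 in the RV, between 4.87 and 5.07 in the LV and at 4.64, 5.01 and 4.82 in the septum. It was lower in the RV than in the LV (-0.61, limma adjusted p = 0.0169), a call lost without LV replicate 2 (-0.56) and LV replicate 3 (-0.60).

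Gyg, the glycogenin that primes the polymer, was lower than in the LV (-0.36, limma adjusted p = 0.0268), as was Ppp1r3c, a glycogen-targeting subunit of protein phosphatase (-0.52, limma adjusted p = 0.03). Both calls were lost in 6 of 10 fits, without RV replicates 1, 2 and 4 and LV replicates 1, 2 and 3, with values of -0.39 to -0.33 for Gyg and -0.59 to -0.47 for Ppp1r3c over all 10 fits. The 20 glycogen genes not called against the septum ran from -0.45 to 0.48, the highest being Stbd1, a glycogen-binding protein (limma adjusted p = 0.127).

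Between septum and LV, where limma called 0 of the 82 genes, the largest differences of the other lists were as follows, and none passed. Among the carriers they were 0.40 for Slc2a10, a facilitative carrier of the GLUT family, and -0.33 for Sort1. For lactate and pyruvate they were 0.47 for Pdk3 and 0.34 for Slc16a7, the monocarboxylate carrier MCT2. The septum arrays lay above all LV arrays for Slc2a10, Pdk3 and Slc16a7 and below them for Sort1 and for Pygb, named below. Of all probes 3.45% lay entirely below, and the share entirely above was not counted. These genes were picked for the size of their differences, so nothing is read from the lack of overlap. Pdk3 was well above background on 1 of 3 LV arrays. An unadjusted p below 0.05 was reached by Sort1 among the carriers and by Pdk3 and Slc16a7, and by 0 genes of the other 3 lists. Of all probes 2.85% reached it. Among the regulators they were -0.38 for Pfkfb1 and 0.88 for Pck1, whose signal was well above background on 1 of these 6 arrays. For glycogen they were 0.20 for Epm2a, the glycogen phosphatase laforin, and -0.17 for Pygb, the brain form of glycogen phosphorylase.

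The genes with levels most like those of Pfkp over the 10 arrays, out of 14616 searched, were Fem1al, Cavin4 and Prune2, with Pearson's r of 0.978, 0.977 and 0.976. The arrays share slides and 1 scaling, so r is a description only. Because these genes were chosen for their likeness to Pfkp, lower levels in the RV follow from that choice and are no separate result. Cavin4, a protein of muscle caveolae, differed by -0.74 between RV and LV and by -0.58 between RV and septum. The corresponding differences were -0.44 and -0.35 for Fem1al and -0.80 and -0.62 for Prune2.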

How the data were processed

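RNA of 4 RV, 3 LV and 3 septum samples was hybridised to Agilent SurePrint G3 mouse arrays. The authors deposited intensity values per spot from Feature Extraction 11.5.1.1, background-subtracted and detrended within each array (1 array's file held rounded signals), and a table of log2 values that the authors scaled in GeneSpring. From the intensities, control and outlier spots were left out, spots of a probe were averaged, and log2 signals were centred on the array's 75th percentile (a signal of 718 to 1004). Of 56605 probes, 30234 were tested, since in 1 or more regions all arrays had them well above background. Between 53.7% and 64.0% of an array's spots were well above background and 0 were saturated. The number of arrays limits the precision.

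Limma 3.58.1 in R 4.3.3 was fitted to all 10 arrays with 1 mean per region, with Benjamini-Hochberg adjustment and two-sided tests. The fit was also run on simulated data with independent noise. That simulation held no slide or replicate effect, so it cannot check the fit where arrays share these. Symbols came from RefSeq accessions (32994 probes), and a gene was represented by its brightest probe. The genes and lists were chosen with earlier results of these data known. Named were all 10 members, each called gene of 5 pathway lists with the 2 largest differences per list and comparison (where a range is given, its ends), and the 3 genes most correlated with the member of smallest p. Samples with the same replicate number deviated together (r of 0.360 to 0.645 in 9 of 9 pairs), so that the replicate number was also fitted as a block. Same-numbered samples also shared a slide, as did replicates 1 and 2. Each pair was checked from 1 of its samples, whose r was highest with its own number in 9 of 9. What made these samples deviate together was not tested. Alternatives changed the scaling, background correction, filter, slide, samples and test. Promoters and assembly came from a RefSeq table. A few genes of the pathway lists are not reported here and stand in no count of those lists.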

Additional observations from a re-analysis of the deposited data

How the results depend on the processing

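As reported, 1, 1 and 0 of the 10 genes and 12, 4 and 0 of the other pathway genes were called for RV minus LV, RV minus septum and septum minus LV. The third pair stayed at 0 for both under every alternative run. In the order of the first 2 comparisons, members then other genes, the slide block gave 5, 2, 38 and 16, the replicate block 5, 2, 34 and 12, and the replicate block as a random effect 4, 2, 41 and 22. The blocks changed no other call of the members than those given with them. Slide 1 alone called 2 members and 6 other genes against the LV, beside 821 of all probes. Against the septum it called 2 other genes, beside 478 of all probes. Slide 2 holds 1 LV and 1 septum array, so that no counts are given for it. Scaling by the median left 0 members against the septum and 7 other genes against the LV, and arrays of the compared regions only 0 and 7. No filter on dim probes left 0 members against the septum and 1 and 2 other genes, with more probes tested. Over all probes these settings called 684, 633 and 269 against the LV, beside 1167 as reported. Against the septum they called 467, 263 and 112, beside 628 as reported. The methods' analysis of variance with Tukey's correction called 4 members against the LV, and 31 and 20 other genes, beside 3998 and 2754 of all probes. After Benjamini-Hochberg it called 6 other genes against the LV and 6 against the septum, beside 784 and 760 of all probes. Leaving out 1 array gave 0 to 1 members against the septum, and 4 to 12 and 2 to 6 other genes. Over all probes these fits called 390 to 980 against the LV and 118 to 542 against the septum.

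Signs turned for small differences, and the causes were not tested. Against the LV, Slc2a1 was 0.16 in slide 1 and -0.11 to 0.095 over leave-one-out fits. Against the septum, Slc2a1 was -0.022 with normexp background correction (a setting chosen after seeing the data), -0.11 in slide 2, -0.026 and -0.012 with the fixed and random replicate block and -0.070 to 0.13 over leave-one-out fits. Pfkm was 0.017 with normexp and -0.071 to 0.096 over those fits, Aldoa 0.075 in slide 1 and -0.079 to 0.024, Eno3 -0.014 to 0.034, and Ldha -0.059 in slide 2 and -0.015 to 0.029. For septum minus LV, Slc2a1 was 0.020 in slide 1 and -0.065 to 0.0054, Ldhb -0.065 to 0.021, Pgam1 -0.33 to 0.019, Pck1 -0.0029 and Epm2a -0.11 in slide 2. Eno2 against the septum was -0.00049 in slide 1. Turns with quantile normalization were Eno3 0.0074, -0.019 and 0.026, Ldha 0.0015, -0.0082 and 0.0097 (in the order of comparisons) and Ldhb 0.071. With median scaling Pfkm was 0.041 and Aldoa 0.0040. With scaling by probes bright on every array, Slc2a1 was 0.023, Eno3 0.0058 and Pfkm 0.032. The mean over probes put Ldha at -0.059. Signal over background limits the dim genes, such as Pck1 and Slc2a2, and the number of arrays limits all.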
